A study of Mus musculus with 12 samples.

Results

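MicroRNAs (miRNAs) linked to the circadian clock were followed in mouse heart ventricles. The members were miR-132-3p (probe set MIMAT0000144_st), miR-212-3p (MIMAT0000659_st), miR-219a-5p (MIMAT0000664_st), miR-192-5p (MIMAT0000517_st) and miR-194-5p (MIMAT0000224_st). They were picked by these miRBase accession numbers from an array table and are 5 of its 1908 probe sets for mature miRNAs, among 3163 probe sets in all. The table held 12 arrays of C57Bl/6J mice in 4 groups of 3: Clock delta 19/delta 19 at 21 months, wild type (WT) at 21 months, Clock delta 19/delta 19 at 4 months and WT at 4 months. All hearts were taken at ZT 6, which is 6 hours after lights on, and snap frozen, so daily rhythms were not measured. CLOCK pairs with BMAL1 to switch on the genes that drive daily rhythms, and the protein made from the delta 19 allele still pairs but activates transcription poorly. The mutation is in the germ line, so every tissue of a homozygous mouse carries it, and a change in the heart need not start in the heart.

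A miRNA guides a silencing complex to messenger RNAs that pair with its seed, the bases 2 to 8 from its 5′ end. In the suprachiasmatic nucleus, the central pacemaker of the brain, miR-132 and miR-219 are known modulators of the clock. There miR-132 is induced by light through CREB and adjusts the response to light, and miR-219 is a target of CLOCK and BMAL1 that affects period length. In mouse heart muscle, miR-212 and miR-132 are known promoters of hypertrophy that repress FoxO3. The miR-192 and miR-194 cluster is known to repress the Period genes, the negative arm of the clock feedback loop, and both miRNAs are better known from liver, kidney and gut than from heart.

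All 5 names were found in the RefSeq mouse sequences (build GRCm38.p6). Their mature forms are shown because the pairs of members that share a seed or a genomic cluster are compared below. MiR-215-5p is not a member and is shown for the seed it shares with miR-192-5p, and capitals mark the seed:
miR-132-3p: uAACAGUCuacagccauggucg
miR-212-3p: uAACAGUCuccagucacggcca
miR-219a-5p: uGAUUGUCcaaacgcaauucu
miR-192-5p: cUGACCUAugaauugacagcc
miR-215-5p: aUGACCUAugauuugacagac
miR-194-5p: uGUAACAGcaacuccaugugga
The seed AACAGUC belonged to miR-132-3p and miR-212-3p and to no other of the 1679 mature mouse miRNAs in the RefSeq table. These 2 sequences share their first 9 bases and are identical at 17 of 22 positions, so probes for one could also bind the other, which was not tested. MiR-192-5p shares its seed UGACCUA with miR-215-5p and is identical to it at 18 of 21 positions. Probes for miR-192-5p could thus also bind miR-215-5p, which was not tested, and the table gives no name by which miR-215-5p could be read. MiR-219a-5p and miR-194-5p each had a seed that no other mature miRNA in the RefSeq table carried.

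The hairpins of miR-212 (chr11:75173388-75173478, plus strand) and miR-132 (chr11:75173682-75173747, plus strand) lie 203 bases apart between the genes Hic1 and Ovca2 and overlap no other annotated gene. Their precursors are shown because both members come from the 3′ arm of neighbouring hairpins, and capitals mark that mature arm:
Mir212: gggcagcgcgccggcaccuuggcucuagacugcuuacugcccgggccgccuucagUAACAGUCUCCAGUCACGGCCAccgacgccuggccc
Mir132: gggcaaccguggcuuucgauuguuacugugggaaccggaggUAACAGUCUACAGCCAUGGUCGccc
MiR-192 (chr19:6264844-6264932, plus strand) lies 115 bases from one copy of miR-194 (Mir194-2, chr19:6264643-6264728, plus strand). A second copy (Mir194-1, chr1:185313319-185313385, plus strand) lies inside Iars2, 195 bases from Mir215, and both copies give the same miR-194-5p, so 1 probe set reads the sum of 2 loci. MiR-219a-5p also comes from 2 loci, Mir219a-1 on chromosome 17 next to Ring1 and Mir219a-2 on chromosome 2 inside Cercam.

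Values are levels on a scale taken as log2, each relative to the median of that probe set over the 12 arrays, as deposited. No absolute signal remains, so the level of one miRNA cannot be set against another's, and whether a member lay above background in the heart is not known. The tissue label was not checked against marker miRNAs, because the table pairs no names with its IDs. On the first principal component of all mature probe sets, which held 21.3% of the variance, 3 young hearts (Clock replicates 2 and 3 and WT replicate 2, all of 4 months) lay at -14.0 to -10.7, away from the others at -1.73 to 8.68. On the second, which held 16.1%, Clock 21-month replicate 2 was the array set apart. Tests were limma contrasts fitted on all 1908 mature probe sets, with p-values adjusted over all of them by the Benjamini-Hochberg method, and a miRNA was called at an adjusted p under 0.05.

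None of the 5 members was called in any of the 7 contrasts. The share of all mature probe sets called was 0% in the 3 genotype contrasts and the interaction, 0.0524% for age in WT hearts, and 0.105% for age in Clock hearts and for age averaged over genotypes. Among the design factors, age took the largest share of the spread of miR-212-3p and miR-132-3p, and genotype that of miR-192-5p and miR-194-5p. The spread within groups was larger than any factor's share for miR-132-3p, miR-194-5p and miR-219a-5p. The following paragraphs give the values in that order, and all differences are in log2 level. In ventricle, a tissue of several cell types, fewer cells of a type and less RNA per cell cannot be told apart.

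**Figure D1:**
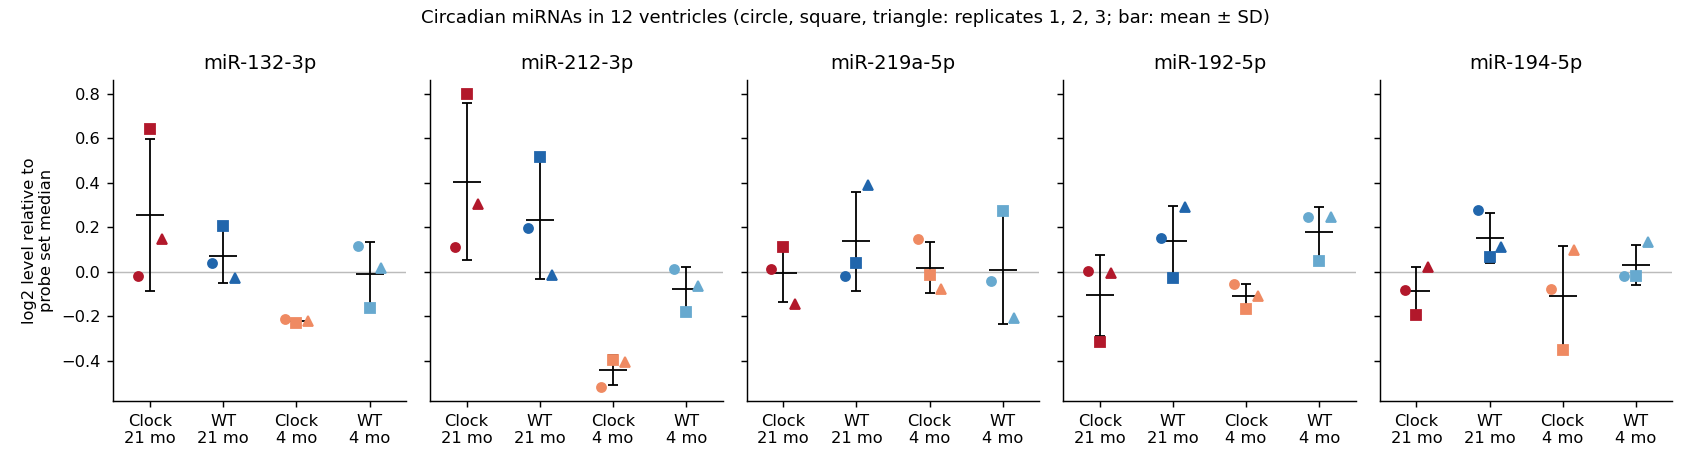
Level of each circadian miRNA (y axis, log2, median of the probe set at 0) in the 4 groups (x axis), with 1 point per heart and bars for mean ± SD (n = 3). The 3 Clock hearts of 4 months are the lowest of all 12 for miR-132-3p and miR-212-3p, and Clock 21-month replicate 2 (square) is the highest for both.

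MiR-212-3p, the less studied member of the light- and CREB-responsive pair, stood at 0.11, 0.80 and 0.31 in Clock hearts of 21 months and at 0.20, 0.52 and -0.013 in WT hearts of 21 months. It stood at -0.52, -0.40 and -0.41 in Clock hearts of 4 months and at 0.013, -0.18 and -0.063 in WT hearts of 4 months. The 3 young Clock hearts were thus the lowest of the 12, below every young WT heart and every old heart, while old and young WT hearts overlapped. In Clock hearts miR-212-3p averaged 0.41 ± 0.35 at 21 months and -0.44 ± 0.067 at 4 months (SD, n = 3), a difference of 0.85 (SE 0.19, 95% interval 0.43 to 1.26) or 1.80-fold. Its limma p ranked 9th of 1908, with an adjusted p of 0.203. In WT hearts the averages were 0.23 ± 0.27 at 21 months and -0.078 ± 0.099 at 4 months, a difference of 0.31 (SE 0.19, interval -0.11 to 0.73, adjusted p = 0.86). Single old WT hearts moved that difference, to 0.17 without replicate 2 and 0.43 without replicate 3.

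MiR-132-3p, its cluster partner, stood at -0.019, 0.64 and 0.15 in Clock hearts of 21 months and at 0.042, 0.21 and -0.030 in WT hearts of 21 months. In Clock hearts of 4 months it was at -0.21, -0.23 and -0.22, and in WT hearts of 4 months at 0.12, -0.16 and 0.019. The young Clock hearts were again the 3 lowest and nearly equal, and only they were separate from another group. In Clock hearts miR-132-3p averaged 0.26 ± 0.34 at 21 months and -0.22 ± 0.0089 at 4 months, a difference of 0.48 (SE 0.17, interval 0.10 to 0.85) or 1.39-fold (adjusted p = 0.376). In WT hearts it averaged 0.073 ± 0.12 at 21 months and -0.0092 ± 0.14 at 4 months, a difference of 0.082 (SE 0.17, interval -0.29 to 0.46).

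Of the 5 members, 2 were not overlapping between 21 and 4 months in Clock hearts, both higher at 21 months, where 9.12% of all mature probe sets were separate in that direction and 14.8% in either. These 2, miR-212-3p and miR-132-3p, correlated closely over the 12 arrays (r = 0.938) and are not independent members. At an unadjusted p under 0.05 there were again 2, against 9.85% of all probe sets. In WT hearts 0 of 5 members reached an unadjusted p under 0.05, against 5.61% of probe sets, and 0 were separate between the ages, against 11.9%. The median difference over the 5 members was 0.025 in Clock hearts and 0.12 in WT hearts, beside 0.049 and 0.032 over all mature probe sets. Both differences in Clock hearts were smaller without Clock 21-month replicate 2, at 0.65 for miR-212-3p (adjusted p = 0.26) and 0.29 for miR-132-3p (adjusted p = 0.514). There only miR-212-3p kept an unadjusted p under 0.05. With the 3 outlying young hearts removed, which leaves 1 young Clock heart, the differences were 0.92 and 0.47. Spread within that group cannot be estimated from 1 heart, so only the differences are given.

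Averaged over genotypes, miR-212-3p was at 0.32 at 21 months and -0.26 at 4 months, a difference of 0.58 (SE 0.13, interval 0.28 to 0.87) or 1.49-fold. Its limma p ranked 20th of 1908 in that contrast, with an adjusted p of 0.123. MiR-132-3p differed by 0.28 (SE 0.12, interval 0.014 to 0.55, adjusted p = 0.419). An unadjusted p under 0.05 was reached by these 2 correlated members of the 5, and by 11.0% of all probe sets. That of miR-132-3p did not hold after quantile normalization, centring of arrays, array weights, the replicate block or most single removals. Age took 60.3% of the sum of squares of miR-212-3p over the 12 arrays and 35.7% of that of miR-132-3p, against a median of 7.01% over all mature probe sets.

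**Figure D2:**
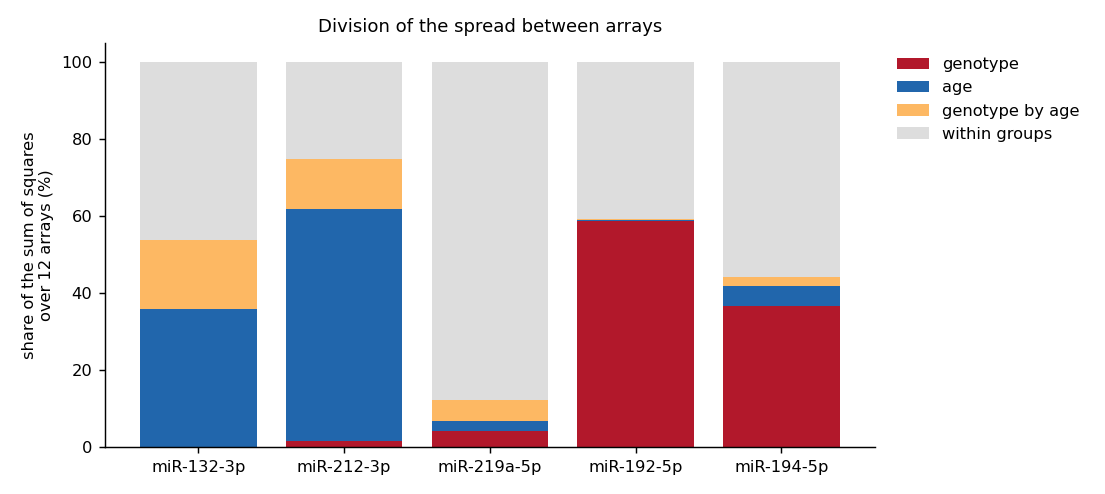
Share of each miRNA's sum of squares over 12 arrays (y axis, percent) taken by genotype, age, their interaction and the spread within groups. Age takes the largest part outside the groups for miR-132-3p and miR-212-3p, genotype for miR-192-5p and miR-194-5p, and 87.8% lies within groups for miR-219a-5p.

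At 4 months, miR-212-3p was 0.36 lower in Clock than in WT hearts (SE 0.19, interval -0.78 to 0.056, adjusted p = 0.826). MiR-132-3p differed there by -0.21 (SE 0.17, interval -0.59 to 0.16, adjusted p = 0.913). These young Clock hearts also enter the age differences above, so the 2 comparisons are not independent. At 21 months the averages ran the other way, with differences between Clock and WT of 0.17 (SE 0.19) for miR-212-3p and 0.18 (SE 0.17) for miR-132-3p. Both depended on Clock 21-month replicate 2, without which the differences were -0.024 and -0.0081. The age effect in Clock hearts exceeded that in WT hearts by 0.53 for miR-212-3p (SE 0.27, interval -0.058 to 1.13) and by 0.40 for miR-132-3p (SE 0.24, interval -0.14 to 0.93). Neither interaction passed (adjusted p = 0.972 for both), and no member reached an unadjusted p under 0.05 there, where 4.19% of probe sets did. The age differences were thus not shown to differ between genotypes. Single old hearts moved these values. Without Clock 21-month replicate 2 the interactions were 0.34 and 0.20. Without Clock 21-month replicate 1 they were 0.68 and 0.53, both with an unadjusted p under 0.05. The interaction of miR-212-3p also had one without WT 21-month replicate 2.

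Over the 12 hearts the cluster partners moved together. The young Clock hearts, nearly equal in miR-132-3p (SD 0.0089), did not keep one order for both, which was not tested. Of those, replicate 1 was the highest for miR-132-3p (-0.211, the others -0.229 and -0.223) and the lowest for miR-212-3p (-0.517, the others -0.397 and -0.406). Over the 12 arrays the level of miR-212-3p correlated with that of miR-132-3p (Pearson's r = 0.938, permutation p = 1e-05, the smallest 100000 resamples can give; Spearman's rho = 0.923, permutation p = 5e-05). Adjusted over the 2 relations computed, these p-values were 2e-05 and 0.0001. Without the 2 arrays farthest from the median of miR-132-3p, Clock 21-month replicate 2 and Clock 4-month replicate 2, r was 0.921 (permutation p = 0.00024). Leaving out each array gave r from 0.930 to 0.946. The relation was not only one of group means: on deviations from the group means r was 0.931 (exact permutation p = 0.00463 over 1296 exchanges within groups, adjusted p = 0.00926). Each of the 2 miRNAs had the other as its closest match among 1907 other mature probe sets. Such mutual pairs were common, and 906 of the 1908 mature probe sets were in one. On deviations from the group means, miR-212-3p stayed first for miR-132-3p, and miR-132-3p was second for miR-212-3p.

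**Figure D3:**
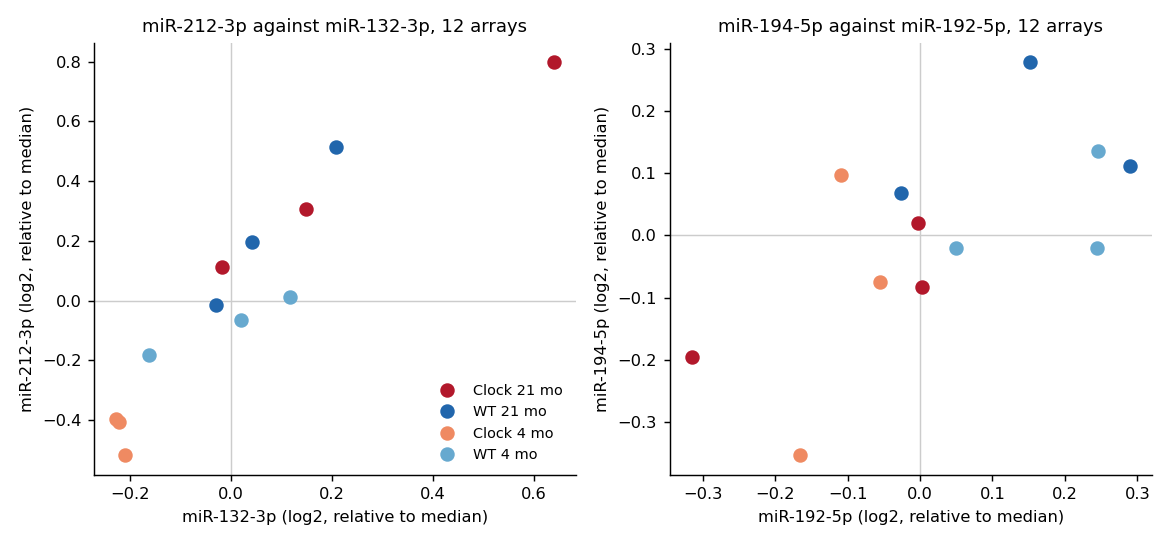
Level of miR-212-3p against miR-132-3p (left) and of miR-194-5p against miR-192-5p (right), both axes in log2 with the probe set's median at 0, with 1 point per heart coloured by group. The left points lie near a line (r = 0.938), and the right ones scatter more widely (r = 0.651).

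MiR-192-5p, a known repressor of the Period genes, stood at 0.0033, -0.32 and -0.0033 in Clock hearts of 21 months and at 0.15, -0.027 and 0.29 in WT hearts of 21 months. At 4 months it stood at -0.055, -0.17 and -0.11 in Clock hearts and at 0.24, 0.050 and 0.25 in WT hearts. Young Clock and young WT hearts were separate, and at 21 months 1 WT heart (-0.027) lay among the Clock hearts. Averaged over ages miR-192-5p was at -0.11 in Clock hearts and 0.16 in WT hearts, a difference of -0.27 (SE 0.098, interval -0.48 to -0.050), or 1.20-fold lower in the mutant. Its limma p ranked 59th of 1908, with an adjusted p of 0.648. The difference was of like size at each age, -0.29 (SE 0.14, interval -0.60 to 0.016) at 4 months and -0.24 (SE 0.14, interval -0.55 to 0.063) at 21 months, with an interaction of 0.047 (SE 0.20, interval -0.39 to 0.48). Without Clock 21-month replicate 2, its lowest heart, the difference at 21 months was -0.14. Genotype took 58.6% of its sum of squares, beside a median of 5.80% over all mature probe sets.

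MiR-194-5p, whose 2 loci include the neighbour of miR-192, stood at -0.083, -0.20 and 0.020 in Clock hearts of 21 months and at 0.28, 0.068 and 0.11 in WT hearts of 21 months. At 4 months it was at -0.076, -0.35 and 0.097 in Clock hearts and at -0.020, -0.020 and 0.14 in WT hearts. Here the old Clock and old WT hearts were separate and the young ones overlapped. Averaged over ages miR-194-5p was at -0.099 in Clock hearts and 0.093 in WT hearts, a difference of -0.19 (SE 0.10, interval -0.41 to 0.032, adjusted p = 0.74). It was -0.14 (SE 0.14) at 4 months and -0.24 (SE 0.14) at 21 months. The value at 4 months rested on single hearts, at -0.022 without Clock 4-month replicate 2, -0.25 without Clock 4-month replicate 3 and -0.091 without WT 4-month replicate 3. Genotype took 36.6% of its sum of squares.

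For genotype at 4 months, 3 of 5 members were not overlapping between groups (miR-132-3p, miR-212-3p and miR-192-5p, all lower in Clock), against 11.1% of all mature probe sets, or 5.77% in that direction. At 21 months it was 1 of 5 (miR-194-5p), against 10.9%, or 4.87% lower in Clock. The levels of miR-132-3p and miR-212-3p were closely correlated (r = 0.938), so these counts do not rest on 5 independent members. No member reached an unadjusted p under 0.05 at either age, where 6.03% of probe sets did at 4 months and 5.87% at 21 months. At 4 months this count was 1 with array weights or the replicate block (miR-192-5p), 1 with only the groups compared (miR-212-3p), 1 without WT 4-month replicate 2 (miR-192-5p) and 2 without Clock 21-month replicate 2 (both). Averaged over ages 1 of 5 did (miR-192-5p), against 6.13%, and 0 did without WT 21-month replicate 3. MiR-194-5p joined it without Clock 4-month replicate 3. The median genotype difference over the 5 members was -0.21 at 4 months, -0.14 at 21 months and -0.095 averaged over ages, beside 0.00083, 0.0045 and 0.0065 over all mature probe sets.

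**Figure D4:**
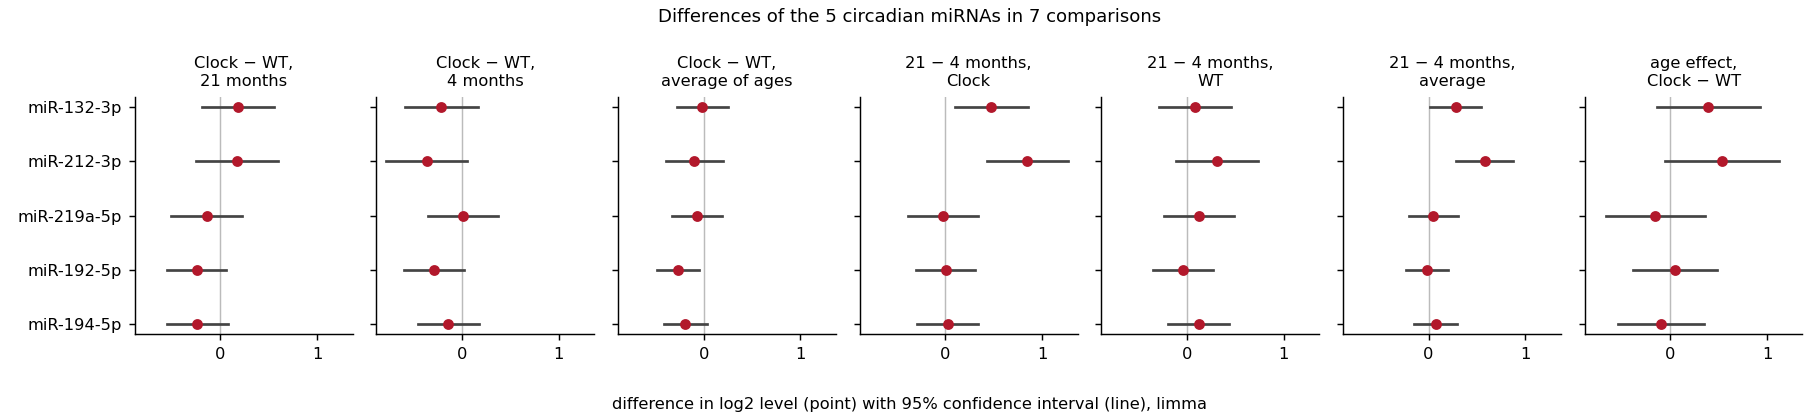
Difference in log2 level (x axis, point) with its 95% confidence interval (line) for the 5 miRNAs (rows) in 7 contrasts (panels). Intervals that leave out 0 are those of miR-132-3p and miR-212-3p for age in Clock hearts and averaged over genotypes, and of miR-192-5p for genotype averaged over ages.

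MiR-194-5p and miR-192-5p correlated over the 12 arrays less closely than the other pair did in value (Pearson's r = 0.651, permutation p = 0.0215; Spearman's rho = 0.643, permutation p = 0.028; adjusted p = 0.0215 and 0.028 over the 2 relations), and the difference between the correlations was not tested. Without the 2 arrays farthest from the median of miR-192-5p, Clock 21-month replicate 2 and WT 21-month replicate 3, r was 0.564. It did not pass over the remaining 10 arrays (permutation p = 0.0867). Whether the smaller number of arrays or the 2 hearts left out accounted for this was not tested. On deviations from the group means r was 0.441 (exact permutation p = 0.113), which is a weaker relation that did not pass. MiR-194-5p ranked 45th among the matches of miR-192-5p, and miR-192-5p ranked 29th among those of miR-194-5p. On deviations from the group means these ranks were 288th and 240th of 1907.

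With age, neither miRNA differed beyond its spread. The differences between 21 and 4 months in Clock hearts were 0.0050 (SE 0.14, interval -0.30 to 0.31) for miR-192-5p and 0.025 (SE 0.14, interval -0.29 to 0.34) for miR-194-5p. In WT hearts they were -0.042 (SE 0.14, interval -0.35 to 0.26) and 0.12 (SE 0.14, interval -0.20 to 0.44).

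MiR-219a-5p, the CLOCK and BMAL1 target of the pacemaker, stood at 0.014, 0.11 and -0.14 in Clock hearts of 21 months and at -0.019, 0.038 and 0.39 in WT hearts of 21 months. At 4 months it stood at 0.15, -0.014 and -0.076 in Clock hearts and at -0.041, 0.28 and -0.21 in WT hearts. All groups overlapped, and the highest and the lowest of the 12 values both came from WT hearts. Averaged over ages the difference between Clock and WT was -0.067 (SE 0.12, interval -0.32 to 0.19, adjusted p = 0.929). The difference between 21 and 4 months averaged over genotypes was 0.051 (SE 0.12, interval -0.21 to 0.31, adjusted p = 0.9). On the scale taken as log2, these intervals exclude a 2-fold difference in the deposited values either way. They do not show that the levels were equal, and whether the signal lay above background is not known. Within-group spread took 87.8% of its sum of squares, beside a median of 71.5% over all mature probe sets.

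Ordered by group mean, miR-212-3p and miR-132-3p ran from Clock at 21 months through WT at 21 months and WT at 4 months to Clock at 4 months, and only the last step separated neighbouring groups without overlap. For miR-192-5p the order was WT at 4 months, WT at 21 months, Clock at 21 months and Clock at 4 months, and for miR-194-5p it was WT at 21 months, WT at 4 months, Clock at 21 months and Clock at 4 months. No 2 neighbours in either order were separate. The standard deviation over 12 arrays was 0.39 for miR-212-3p, above that of 70.3% of mature probe sets, and 0.24 for miR-132-3p (42.7%). It was 0.18 for miR-192-5p (18.8%), 0.17 for miR-219a-5p (14.9%) and 0.17 for miR-194-5p (13.2%), so these 3 varied less between arrays than most probe sets. Whether a dim signal narrowed their spread was not tested, as no absolute signal remains. All 5 intervals excluded a 2-fold difference in the deposited values, taken as log2, in 5 of the 7 contrasts. The exceptions were miR-212-3p for age in Clock hearts and for the interaction.

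**Figure D5:**
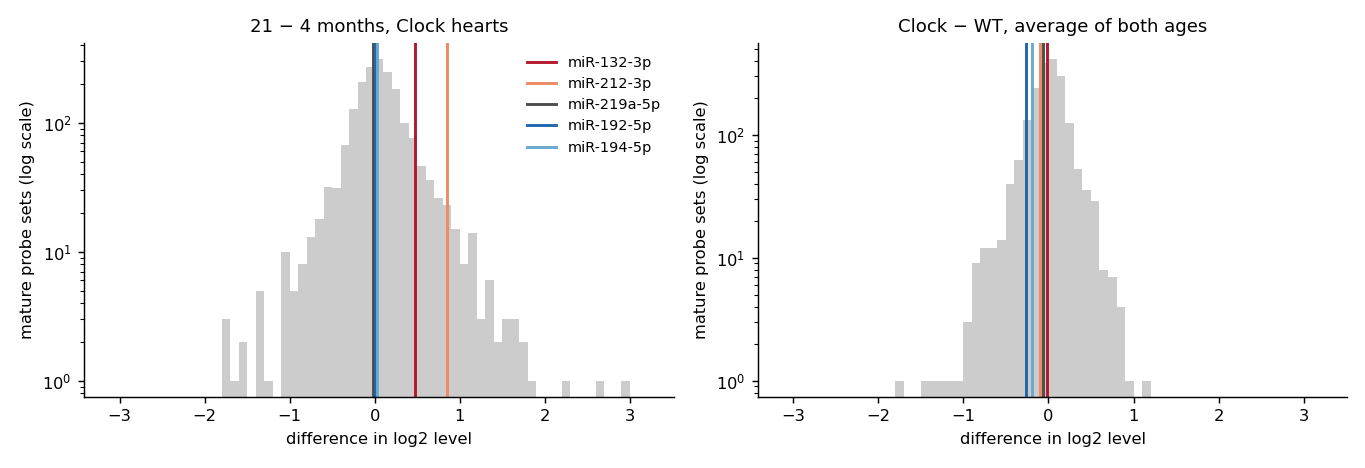
Number of mature probe sets (y axis, log scale) by difference in log2 level (x axis) for 21 against 4 months in Clock hearts (left) and Clock against WT averaged over ages (right), with lines at the 5 circadian miRNAs. MiR-212-3p lies above 96.3% of probe sets on the left, and miR-192-5p above 10.2% on the right.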

How the data were processed

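Ventricular RNA (miRNeasy) of 12 mice was labelled with biotin by an Affymetrix procedure, per the labels' protocols. The authors deposited 1 table of values on a scale taken as log2. In every row the median over the 12 arrays was 0 within 1e-06, so each probe set had been set relative to its own median. The log base, background correction and normalization were not stated in the labels or headers, and a base other than 2 would change the folds and not the tests. The 5 members were identified by the miRBase accessions listed with their names for this work. The other arms, hairpins, clock-linked miRNAs and cell type markers that had been listed were not analysed here, because the table pairs no names with IDs.

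A mean per group was fitted to 1908 mature (MIMAT) probe sets in all 12 arrays with limma 3.58.1 (R 4.3.3; 8 residual and 2.82 prior degrees of freedom, Benjamini-Hochberg adjustment), after a test on simulated data. Correlations used numpy 2.4.6 and permutation tests. Values centred per probe set allow no filter on dim signals. The closest matches of each member were ranked by Pearson's r. Labels call the replicates biological, no 2 arrays were identical, and the number of arrays limits the precision. Members, lists and tests were chosen with earlier results of these data known. Alternatives were quantile normalization, centring of arrays, array weights, a replicate block, only the groups compared, precursors included, each array left out in turn, and a threshold of 0.10.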

Additional observations from a re-analysis of the deposited data

How the results depend on the processing

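No member was called under any alternative that was run (lowest limma adjusted p = 0.0812, for miR-212-3p and age averaged over genotypes without Clock 21-month replicate 1). The threshold of 0.10 was applied only to the main fit of all 12 arrays, and the value of 0.0812 lies under it. The replicate block, only the groups compared, precursors included and the threshold of 0.10 change the test and not the differences. Under the 4 settings that change the estimate, apart from leaving out single arrays, 132 of 140 differences kept their sign and 8 turned. After quantile normalization they were -0.0019 for miR-219a-5p (Clock against WT at 4 months), and -0.014 for miR-192-5p and -0.023 for miR-194-5p (21 against 4 months in Clock). Centring arrays gave -0.018 for miR-192-5p in that contrast, and array weights gave 0.012 for miR-192-5p and age averaged over genotypes. Without the 3 young hearts that stood apart, an alternative chosen after seeing the data, miR-219a-5p differed by 0.063 for genotype averaged over ages, and miR-192-5p by -0.050 and miR-194-5p by -0.011 for age in Clock hearts. Signs also turned when 1 array was left out. For genotype, miR-219a-5p ranged from -0.098 to 0.14 at 4 months. At 21 months miR-132-3p ranged from -0.0081 to 0.32 and miR-212-3p from -0.024 to 0.32, and averaged over ages miR-132-3p ranged from -0.11 to 0.055. For age in WT hearts, miR-219a-5p ranged from -0.00013 to 0.26 and miR-192-5p from -0.12 to 0.041. For age in Clock hearts the ranges were -0.084 to 0.044 for miR-219a-5p, -0.049 to 0.11 for miR-192-5p and -0.097 to 0.13 for miR-194-5p. Averaged over genotypes they were -0.013 to 0.12 for miR-219a-5p and -0.056 to 0.034 for miR-192-5p. For the interaction they were -0.036 to 0.15 for miR-192-5p and -0.22 to 0.0078 for miR-194-5p. The cause of these turns was not tested. The unadjusted limma p of miR-132-3p for age averaged over genotypes, 0.0405, was 0.0814 after quantile normalization, 0.0528 after centring and 0.0841 with array weights. That of miR-192-5p for genotype averaged over ages ranged from 0.0135 to 0.0522 over the 12 single removals. The correlation of miR-194-5p with miR-192-5p was 0.441 (exact permutation p = 0.113) on deviations from the group means, 0.491 (permutation p = 0.213) without the 4 arrays that stood apart, also chosen after seeing the data, and from 0.579 to 0.729 over the single removals (permutation p = 0.0545 without Clock 21-month replicate 2). Same-numbered arrays did not deviate together (r from -0.11 to 0.12, and 5 of 12 arrays correlated best with their own number), so the numbers were not taken to pair the hearts. With the replicate block 0 members were called, and the adjusted p of miR-212-3p for age in Clock hearts was 0.191.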

Other observations

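The closest matches of the members among all mature probe sets bear on how much a high correlation over 12 arrays says. The highest r of a mature probe set with any other had a median of 0.850 over all 1908, and 5.66% of probe sets had one at or above the 0.938 of miR-132-3p with miR-212-3p. MiR-219a-5p reached 0.845, miR-192-5p 0.875 and miR-194-5p 0.895, each with a probe set that the table does not name. MIMAT0000381_st was second for both miR-132-3p (r = 0.932) and miR-212-3p (r = 0.913). All these values share the same 12 arrays.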
